A study of Mus musculus with 12 samples.

Results

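The 10 genes described here handle zinc and iron in mouse cells: the metallothioneins Mt1 and Mt2, the zinc transporters Slc30a1 and Slc39a10, the iron importers Tfrc and Slc11a2, the ferritin subunits Fth1 and Ftl1, and the iron regulatory proteins Aco1 and Ireb2. They were chosen by symbol, as genes that respond to metals, because doxycycline binds metal ions. Earlier results of these data were known when they were chosen, so their shares beside all genes below are descriptions and not tests. All 10 were found among the 27179 genes of the count table, and all 10 passed the filter on low counts that left 12910 genes for testing.

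RNA was sequenced from MC38-idAdpgkG, a derivative of the MC38 colon carcinoma line of C57BL/6 mice. It carries a construct for an Adpgk(R304M) neoantigen fused to turboGFP, which doxycycline switches on and dTAG-13, a small molecule that directs a tagged protein to degradation, removes. All 4 groups received mouse interferon gamma (IFNg) at 20 ng/mL, so no group shows these genes without it. Control cells received IFNg alone for 51 h. Doxycycline cells received IFNg with doxycycline at 1 µg/mL for 51 h. In the dTAG-13 group, 48 h of IFNg was followed by 1 µM dTAG-13 for 3 h, and in the doxycycline plus dTAG-13 group 48 h of IFNg and doxycycline was followed by 3 h of dTAG-13. Each group is 3 technical libraries of 1 biological sample of 1 engineered line, so every p-value below measures the spread between libraries and not between cultures. Words such as lowered or raised describe differences between these samples. A difference between cultures and an effect of an agent cannot be told apart.

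Cells keep free zinc and iron low by sensing them in separate ways. Zinc activates the transcription factor MTF-1, which binds metal response elements in the promoters of metallothionein genes and of Slc30a1, whose product exports zinc. Iron acts mainly after transcription: when iron is scarce, the regulatory proteins encoded by Aco1 and Ireb2 bind hairpins called iron-responsive elements, which protects the Tfrc mRNA from decay and blocks translation of ferritin mRNA. RNA counts therefore do not read the translational arm of this system.

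The libraries held 22165538 to 32809573 counted reads. Levels are given as CPM, read counts normalised to the TMM-scaled library size, and differences as log2 fold changes with their standard error (SE). Adpgk, which the doxycycline construct encodes, was at 161 ± 2.49 CPM in control, 181 ± 4.18 in dTAG-13, 1338 ± 20.1 in doxycycline and 1369 ± 15.7 in doxycycline plus dTAG-13 (mean ± SD, n = 3). None of 8 colon epithelial markers reached a mean of 1 CPM, and Epcam and Cdx2 were at 0 in all libraries, so the markers did not show the labelled cell type. The defining markers of leukocytes and hepatocytes were also at or near 0, with summed levels of at most 0.2 and 0.0644 CPM, and the 3 endothelial markers summed to 1.92 to 4.15 CPM. The 4 mesenchymal markers, nearly all Vim, summed to 1486 to 1529 CPM in control, 1292 to 1311 in doxycycline, 1196 to 1213 in dTAG-13 and 1013 to 1048 in doxycycline plus dTAG-13. Pdgfrb, the other mesenchymal marker above 1 CPM, did not follow Vim: its means were 5.28 CPM in control, 8.45 in doxycycline, 4.71 in dTAG-13 and 7.56 in doxycycline plus dTAG-13. The group means of Mt1, Mt2, Slc30a1 and Aco1 were in the same order as Vim, and its part in the results was not tested. In bulk RNA, fewer cells of a type and less RNA per cell cannot be told apart.

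The sequences through which some of these genes are known to be controlled are shown first. The genes themselves are grouped by role below. Metal response elements were searched as the core letters TGCACNC or TGCGCNC on both strands, in windows from 250 bases before to 50 bases after each RefSeq start (GRCm38.p6). Windows were held for 9 of the 10 genes; Slc11a2 had no entry. The window of Mt1 had 3 cores, that of Mt2 4 and that of Slc30a1 2. Some of these cores lie after the start used. Counting the start base as 1, the cores of Mt1 sites 2 and 3 begin at 3 and 21. That of Mt2 site 4 begins at 5 and that of Slc30a1 site 2 at 31. Each of these genes had 1 window, so other starts were not searched. Of 32851 mouse windows of this length, 25.7% held at least 1 core, 7.11% at least 2, 1.97% at least 3 and 0.517% at least 4. Each site is printed with flanks on the gene's strand, the plus strand in every case, with the core in capitals; a core on the other strand appears as its reverse complement.
Mt1 site 1, chr8:94179055-94179084: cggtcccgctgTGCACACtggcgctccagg
Mt1 site 2, chr8:94179080-94179109: ccagggagctcTGCACTCcgcccgaaaagt
Mt1 site 3, chr8:94179098-94179127: cgcccgaaaagTGCGCTCggctctgccaag
Mt2 site 1, chr8:94172384-94172413: agcatcgcctcTGCACCCggcccctcgggc
Mt2 site 2, chr8:94172479-94172508: cgcagacccttTGCGCTCagctcctttgct
Mt2 site 3, chr8:94172557-94172586: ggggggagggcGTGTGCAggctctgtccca
Mt2 site 4, chr8:94172611-94172640: gaattcgggtcGTGCGCAggcccaggggcg
Slc30a1 site 1, chr1:191906727-191906756: acgggggttccGAGTGCAaagcaaagtttt
Slc30a1 site 2, chr1:191906800-191906829: gcctccgggccGAGCGCAgtcgccgcggac

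One of the 2 Tfrc windows held 2 overlapping cores and the Aco1 window held 1, while Slc39a10, Fth1, Ftl1 and Ireb2 had no match to these letters in their windows. A match is a description of the letters and not of a bound site.

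Iron-responsive elements were searched in the untranslated regions of 1 transcript per gene (GENCODE M21, GRCm38) as a bulged C, 5 bases, the loop CAGTGN and 5 bases that pair with the first 5, with at least 4 of 5 pairs. The search found 7 sites in 4 of the 10 genes. Tfrc had 4 in its 3′ UTR, Slc11a2 had 1 in its 3′ UTR with 4 of 5 pairs, and Fth1 and Ftl1 had 1 each in the 5′ UTR. A match occurred in 0.58% of 18788 5′ UTRs and in 3.77% of 19293 3′ UTRs, which differ in length. The bulged C and the loop are in capitals.
Tfrc site 1, chr16:32631219-32631248, plus strand: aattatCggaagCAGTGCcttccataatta
Tfrc site 2, chr16:32631598-32631627, plus strand: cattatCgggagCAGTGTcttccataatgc
Tfrc site 3, chr16:32631663-32631692, plus strand: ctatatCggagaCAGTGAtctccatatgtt
Tfrc site 4, chr16:32631710-32631739, plus strand: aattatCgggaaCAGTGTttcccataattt
Slc11a2 site, chr15:100395152-100395181, minus strand: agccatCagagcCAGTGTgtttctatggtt
Fth1 site, chr19:9982732-9982761, plus strand: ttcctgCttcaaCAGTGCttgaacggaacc
Ftl1 site, chr7:45459778-45459807, minus strand: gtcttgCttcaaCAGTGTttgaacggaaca

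With doxycycline against control, which asks what the inducer and the protein it induces do together, 7 of the 10 genes passed the test, beside 33.5% of all genes tested. Slc39a10, Fth1 and Ftl1 rose, and Slc30a1, Tfrc, Aco1 and Slc11a2 fell. Of all genes, 14.8% rose and 18.7% fell. The metallothionein genes and Ireb2 did not pass. Doxycycline and the fusion protein it induces came together, so their parts cannot be told apart. These shares stand for 1917 genes that rose and 2414 that fell, a split that became 2546 and 1607 when libraries were scaled by size only; for the 10 genes it went from 3 and 4 to 4 and 3. The median log2 fold change was -0.038 over the 10 genes and -0.01 over all genes.

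With dTAG-13 against control, again 7 of the 10 genes passed, beside 62.1% of all genes, so the share of the 10 is near that of all genes. Ftl1 rose, and Mt1, Mt2, Slc30a1, Slc39a10, Slc11a2 and Aco1 fell, beside 30% of all genes that rose and 32.1% that fell. The median over the 10 genes was -0.101, beside 0.019 over all genes. The split of all genes was 3877 higher and 4144 lower, and 5256 and 3115 with scaling by library size only. For the 10 genes the split of 1 higher and 6 lower became 4 and 3 with that scaling. It became 0 and 6 once the length and GC content of transcripts were corrected for. Those 6 were Mt1, Mt2, Slc30a1, Aco1, Tfrc and Fth1, while Slc39a10, Slc11a2 and Ftl1 no longer passed. With doxycycline plus dTAG-13 against doxycycline, 8 of the 10 genes passed, beside 64.1% of all genes. Tfrc and Fth1 rose, and Mt1, Mt2, Slc30a1, Slc39a10, Ireb2 and Aco1 fell, beside 30.7% of all genes that rose and 33.4% that fell. The median was -0.142 beside 0.003. With the length and GC correction 2 of the 10 genes rose, Tfrc and Slc11a2, and 7 fell, among them Fth1 and Ftl1.

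With doxycycline plus dTAG-13 against dTAG-13, 5 of the 10 genes passed, beside 20.4% of all genes. Fth1 rose, and Mt1, Slc30a1, Tfrc and Aco1 fell, beside 10.7% of all genes that rose and 9.64% that fell. The median was -0.05 beside -0.001. Of all genes 1386 were higher and 1244 lower, and 926 and 2132 with scaling by library size only. The interaction, the dTAG-13 difference with doxycycline minus that without it, passed for 3 of the 10 genes, Tfrc, Slc39a10 and Ireb2, beside 22.9% of all genes. It was positive for Tfrc, as for 13.2% of all genes, and negative for Slc39a10 and Ireb2, as for 9.64%. Its median was 0.023 beside 0.005, and its split over all genes was 1705 higher and 1245 lower, or 818 and 2424 with scaling by library size only.

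The doxycycline difference was measured in 2 pairs of groups that share no library, without and with dTAG-13. Slc30a1, Tfrc, Fth1 and Aco1 passed in both with the same sign, 4 of 10 genes or 40%, beside 969 of 12910 genes or 7.51%. The 10 genes were chosen with earlier results of these data known, so this share does not test them as a set. The dTAG-13 difference was likewise measured without and with doxycycline: Mt1, Mt2, Slc30a1, Slc39a10 and Aco1 passed in both with the same sign, 50% of the 10 genes beside 48% of all genes. These shares are those of TMM scaling. With the length and GC correction Fth1 did not pass with doxycycline in cells with dTAG-13 (0.12, adjusted p = 0.105). Slc39a10 did not pass with dTAG-13 against control there (0.0, adjusted p = 0.996). With scaling by library size only, Mt1 (-0.041, adjusted p = 0.225) and Slc39a10 (-0.007, adjusted p = 0.879) did not pass with dTAG-13 against control.

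**Figure D1:**
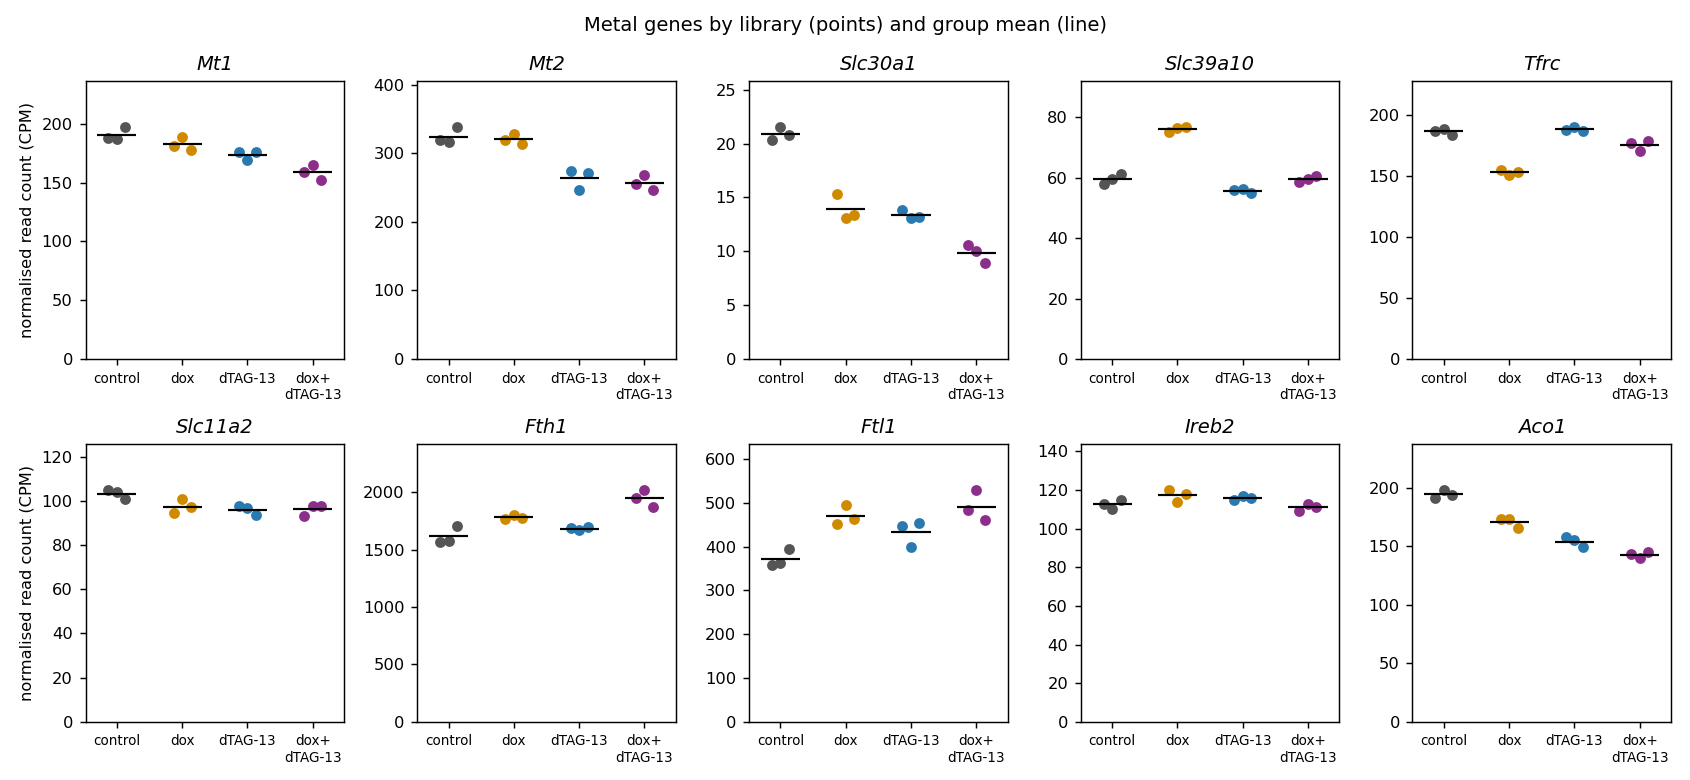
Level of each gene in CPM (vertical axes, from 0) in each of the 12 libraries by group (horizontal axes); points are libraries and lines are group means. Slc30a1 is highest in control (20.3 to 21.5 CPM) and lowest in doxycycline plus dTAG-13 (8.94 to 10.6 CPM).

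Slc30a1, the zinc exporter of the plasma membrane (chr1:191906767-191913247), showed the largest difference of the 10 genes in each of the 4 pairwise comparisons with TMM scaling; with the correction for transcript length and GC content Mt2 differed more in both dTAG-13 comparisons, and Mt1 in the one with doxycycline. Its level was 20.3, 21.5 and 20.8 CPM in the control libraries, 15.3, 13.1 and 13.4 in doxycycline, 13.8, 13.1 and 13.2 in dTAG-13, and 10.6, 9.98 and 8.94 in doxycycline plus dTAG-13. Every control library was above every treated library, every library with both agents was below all others, and the groups with a single agent overlapped. Slc30a1 fell 1.5-fold with doxycycline (log2 fold change -0.58, SE 0.0704, adjusted p = 1.29e-08) and 1.56-fold with dTAG-13 (-0.64, SE 0.0707, adjusted p = 2.17e-10). Doxycycline lowered it again in cells with dTAG-13, by 1.37-fold (-0.45, SE 0.0806, adjusted p = 3.93e-05). dTAG-13 lowered it in cells with doxycycline by 1.43-fold (-0.51, SE 0.0802, adjusted p = 4.81e-07), or by -0.33 on the log2 scale after the correction. The interaction was 0.13 with an SE of 0.107 (adjusted p = 0.431), so the size of any departure from additivity on the log scale is uncertain. Slc30a1 had 237 to 668 reads a library, and the part of this depth in the SE was not tested. An antisense gene, 1700034H15Rik, overlaps its exons, and whether reads were counted by strand is not given in the sources used here.

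Slc39a10, which imports zinc across the plasma membrane (chr1:46807544-46892852), moved the other way with doxycycline. It was at 58.0, 59.6 and 61.3 CPM in control, 75.0, 76.3 and 76.6 in doxycycline, 55.9, 56.1 and 55.0 in dTAG-13, and 58.4, 59.6 and 60.5 in doxycycline plus dTAG-13. The doxycycline libraries stood above all others, and the libraries with both agents lay within the control range. Slc39a10 rose 1.27-fold with doxycycline (log2 fold change 0.35, SE 0.0359, adjusted p = 2.34e-10). In cells with doxycycline, dTAG-13 lowered it 1.28-fold (-0.35, SE 0.0364, adjusted p = 4.01e-11), or by -0.19 with the length and GC correction. Without doxycycline the dTAG-13 difference was small (-0.1, SE 0.0369, adjusted p = 0.0194). That call was lost without control replicate 3 (-0.086, adjusted p = 0.0657), with scaling by library size only (-0.007) and with the correction (0.0, adjusted p = 0.996). The interaction was -0.25 (SE 0.0519, adjusted p = 0.000334), so the dTAG-13 difference of Slc39a10 was larger with doxycycline than without it. The doxycycline difference in cells with dTAG-13 was 0.1 (adjusted p = 0.0588), which passed with RLE size factors, with the filter of 1 CPM in 3 libraries and with the correction (0.13, adjusted p = 0.00875).

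The metallothioneins are small cysteine-rich proteins that bind zinc and copper, and their mRNAs are classic readouts of zinc. Mt1 (chr8:94179082-94180327) was at 188, 187 and 197 CPM in control, 181, 189 and 178 in doxycycline, 176, 169 and 176 in dTAG-13, and 159, 165 and 152 in doxycycline plus dTAG-13. Mt2 (chr8:94172664-94173568) was at 320, 316 and 338 CPM in control, 320, 328 and 314 in doxycycline, 275, 247 and 271 in dTAG-13, and 255, 269 and 247 in doxycycline plus dTAG-13. The control and doxycycline libraries overlapped for both genes, and the dTAG-13 libraries lay below them.

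Doxycycline gave log2 fold changes of -0.06 (SE 0.0292, adjusted p = 0.117) for Mt1 and -0.02 (SE 0.0412, adjusted p = 0.811) for Mt2, and the sign for Mt2 turned with scaling by library size only (0.020) and with the length and GC correction (0.030). With dTAG-13, Mt2 fell 1.23-fold (-0.3, SE 0.0415, adjusted p = 2.95e-05) and Mt1 1.1-fold (-0.13, SE 0.0293, adjusted p = 0.000153). In cells with doxycycline, dTAG-13 lowered Mt2 1.25-fold (-0.32, SE 0.0418, adjusted p = 1.35e-05) and Mt1 1.16-fold (-0.21, SE 0.0298, adjusted p = 9.68e-08). Mt1 was also lower with both agents than with dTAG-13 alone (-0.14, SE 0.0299, adjusted p = 0.000811), and Mt2 did not pass there (-0.04, adjusted p = 0.57). The direction of the falls held under every scaling tried, but the Mt1 call for dTAG-13 against control did not hold when libraries were scaled by size only (-0.041, adjusted p = 0.225). After the length and GC correction the dTAG-13 falls were larger, -0.37 and -0.62 for Mt1 and -0.58 and -0.78 for Mt2 without and with doxycycline. The Mt1 interaction did not pass with TMM scaling (-0.08, adjusted p = 0.199). It passed with the correction (-0.24, adjusted p = 0.0186) and with scaling by library size only (-0.147, adjusted p = 0.00806). An antisense gene, Gm45774, overlaps the Mt2 exons.

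**Figure D2:**
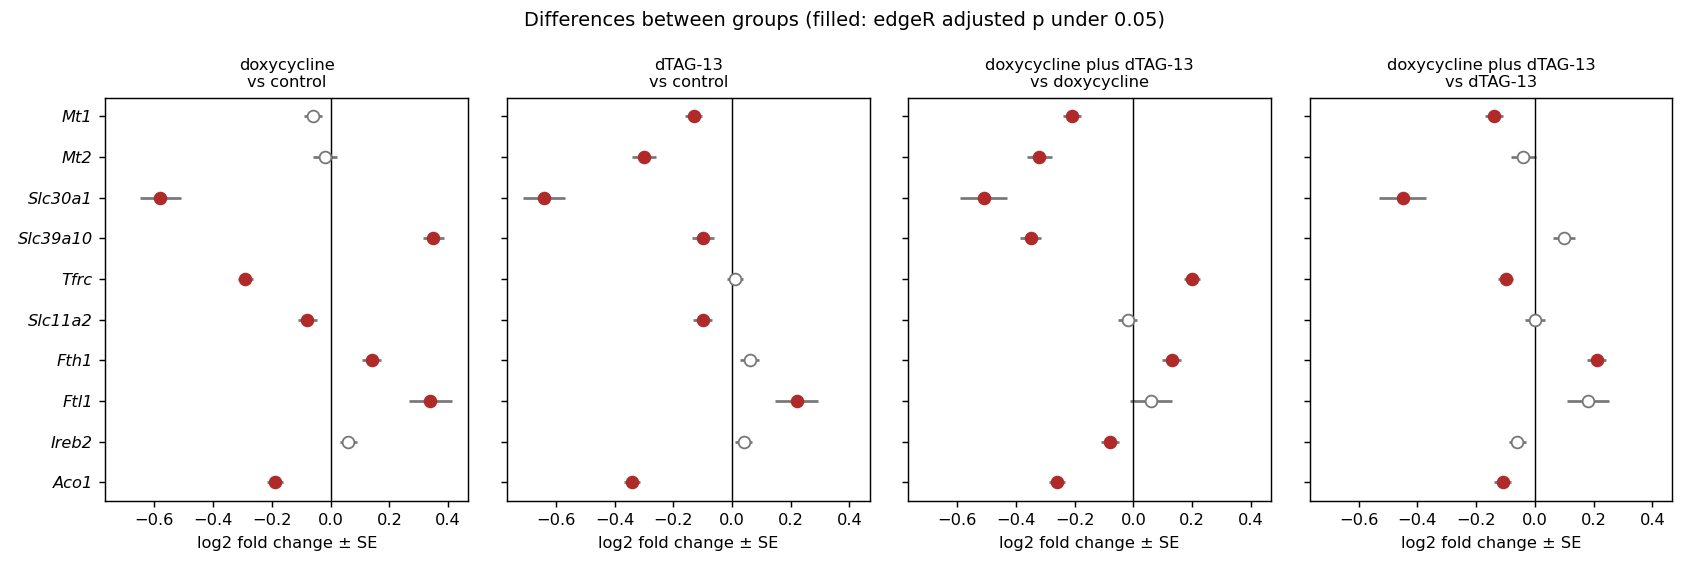
Log2 fold change (horizontal axes) of each gene in the 4 pairwise comparisons, with bars of 1 SE; filled points passed the test and open points did not. With this TMM scaling Slc30a1 lies farthest below 0 in each, from -0.45 to -0.64; with the length and GC correction Mt2 lies lower in both dTAG-13 comparisons (-0.58 and -0.78).

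Tfrc, the transferrin receptor through which most cells take up iron (chr16:32608920-32632794), carries the 4 hairpins printed above. It was at 187, 189 and 184 CPM in control, 155, 151 and 153 in doxycycline, 188, 190 and 187 in dTAG-13, and 177, 171 and 179 in doxycycline plus dTAG-13. The doxycycline libraries were below all others, those with both agents came next, and control and dTAG-13 overlapped. Tfrc fell 1.22-fold with doxycycline (log2 fold change -0.29, SE 0.026, adjusted p = 1.01e-11). It fell 1.07-fold with doxycycline in cells with dTAG-13 (-0.1, SE 0.026, adjusted p = 0.00309). dTAG-13 raised it 1.15-fold in cells with doxycycline (0.2, SE 0.0263, adjusted p = 1.73e-08). Without doxycycline the dTAG-13 difference was 0.01 (SE 0.0257, adjusted p = 0.638). That small value passed in opposite directions with scaling by library size only (0.106, adjusted p = 0.000459) and with the length and GC correction (-0.06, adjusted p = 0.0419). The interaction was 0.18 (SE 0.0368, adjusted p = 0.000258), with 0.11 with scaling by library size only and 0.25 with the correction.

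Slc11a2, the proton-coupled importer of ferrous iron also known as DMT1 (chr15:100387898-100425072), varied little, from 93.2 to 105 CPM over the 12 libraries. It was at 103 ± 2.5 CPM in control, 97.6 ± 3.36 in doxycycline, 96.1 ± 2.27 in dTAG-13 and 96.3 ± 2.66 in doxycycline plus dTAG-13 (SD, n = 3). Its fall with doxycycline was at the threshold (-0.08, SE 0.0326, adjusted p = 0.0481), the libraries overlapped, and the call held in 2 of 8 alternatives. It was lost without control replicate 1 or 2 or doxycycline replicate 1 or 3 (adjusted p from 0.0939 to 0.363). The dTAG-13 fall (-0.1, SE 0.0326, adjusted p = 0.00554) did not hold when libraries were scaled by size only (-0.013) and turned to 0.04 with the length and GC correction. In cells with doxycycline the dTAG-13 difference was -0.02 (adjusted p = 0.66), and 0.16 after that correction (adjusted p = 5.43e-05). The gene makes transcripts with and without the hairpin, which the counts per gene do not separate, and the coding gene Gm5475 overlaps its exons.

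Fth1 and Ftl1 encode the heavy and light subunits of ferritin, the cage that stores iron, and each carries 1 hairpin in its 5′ UTR. Fth1 (chr19:9980598-9985098) was at 1569, 1581 and 1709 CPM in control, 1765, 1806 and 1775 in doxycycline, 1688, 1670 and 1697 in dTAG-13, and 1949, 2021 and 1873 in doxycycline plus dTAG-13. Ftl1 (chr7:45457944-45459884) was at 357, 362 and 395 CPM in control, 452, 495 and 463 in doxycycline, 446, 398 and 453 in dTAG-13, and 483, 529 and 460 in doxycycline plus dTAG-13. For both genes every doxycycline library was above every control library, and for Fth1 every library with both agents was above all others.

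Fth1 rose 1.1-fold with doxycycline (log2 fold change 0.14, SE 0.0326, adjusted p = 0.00628) and 1.16-fold with doxycycline in cells with dTAG-13 (0.21, SE 0.0326, adjusted p = 0.000672), the latter lost with the length and GC correction (0.12, adjusted p = 0.105). Ftl1 rose 1.27-fold with doxycycline (0.34, SE 0.0723, adjusted p = 0.00651), and in cells with dTAG-13 the value was 0.18 (SE 0.0722, adjusted p = 0.12). The ferritin values for dTAG-13 turned on the correction. For dTAG-13 in cells with doxycycline, Fth1 rose by 0.13 (SE 0.0326, adjusted p = 0.00434) but was at -0.22 after it (adjusted p = 0.00301), and Ftl1 went from 0.06 (adjusted p = 0.483) to -0.2 (adjusted p = 0.0382). For dTAG-13 against control, Fth1 went from 0.06 (adjusted p = 0.155) to -0.16 (adjusted p = 0.0162). There, Fth1 passed as a rise without control replicate 3 (0.09, adjusted p = 0.000329), with no filter on low counts (0.058) and when libraries were scaled by size only (0.149).

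The Ftl1 rise with dTAG-13 (0.22, SE 0.0724, adjusted p = 0.0269) was lost with the correction (0.08, adjusted p = 0.393). It was also lost without control replicate 1 or 2 or dTAG-13 replicate 1 or 3 (adjusted p from 0.086 to 0.1). Ferritin genes have near-identical processed copies, so their counts are uncertain; 1 such copy, Ftl1-ps2, was counted on its own at 5.19 ± 0.634 CPM in control and 7.36 ± 1.17 in dTAG-13 (SD, n = 3). The genes Gm10252 and Gm22133 overlap the Ftl1 exons.

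**Figure D3:**
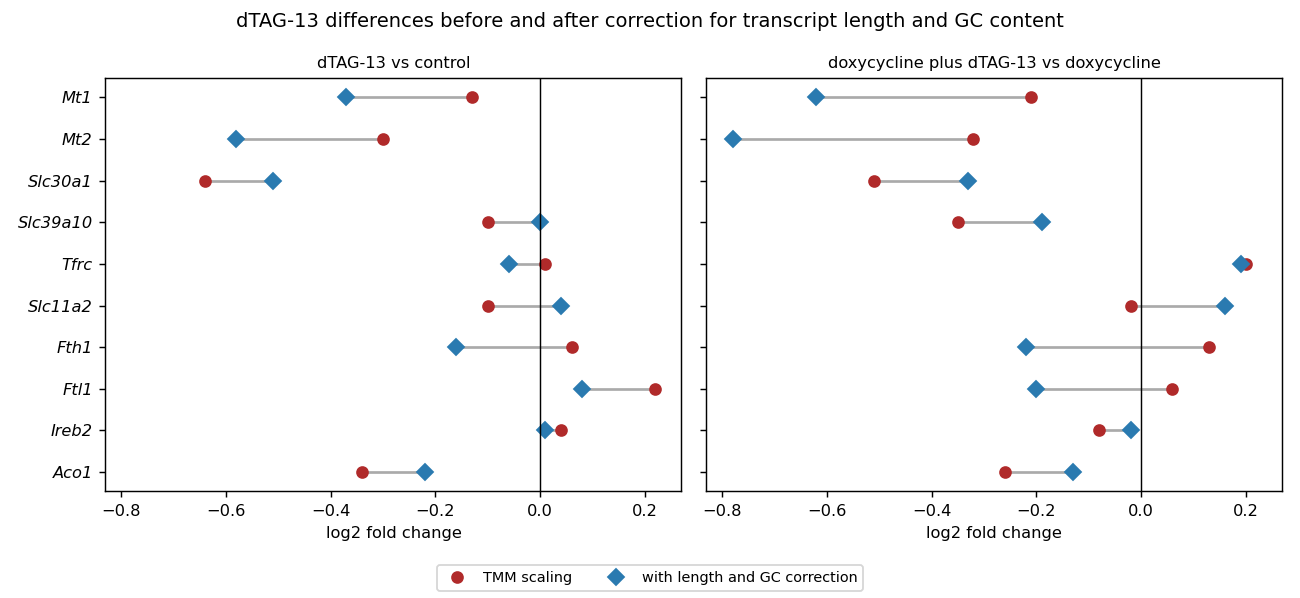
Log2 fold changes for dTAG-13 without doxycycline (left) and with it (right), before (circles) and after (diamonds) correction for transcript length and GC content. Mt1, Mt2, Fth1 and Ftl1, whose transcripts have 511 to 968 bases, move down in both panels, and Slc30a1, Slc39a10, Slc11a2 and Aco1, with 3832 to 5498 bases, move up; Tfrc, with 4890 bases, moves down in both, and Ireb2, with 5770, moves down on the left and up on the right.

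Transcript length moved with the dTAG-13 differences of all genes. Across 11745 genes, which are not independent replicates, Spearman's rho of the log2 fold change with length was -0.448 for dTAG-13 against control and -0.588 in cells with doxycycline. It was 0.107 for doxycycline against control, -0.24 for doxycycline in cells with dTAG-13 and -0.266 for the interaction. The transcripts of Mt1, Mt2, Fth1 and Ftl1 are short, and those of the other 6 genes are long, from 3832 to 5770 bases. The correction removes a trend of this kind in each library whatever its source, which was not tested.

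The iron regulatory proteins differed from each other. Aco1 (chr4:40143081-40198338), which encodes IRP1 and acts as a cytosolic aconitase when it holds an iron-sulphur cluster, was at 191, 198 and 194 CPM in control, 173, 173 and 166 in doxycycline, 158, 155 and 149 in dTAG-13, and 143, 140 and 145 in doxycycline plus dTAG-13. No 2 groups overlapped, with control highest and doxycycline plus dTAG-13 lowest. Aco1 fell 1.14-fold with doxycycline (log2 fold change -0.19, SE 0.027, adjusted p = 3.81e-07) and 1.27-fold with dTAG-13 (-0.34, SE 0.0272, adjusted p = 3.26e-14). It fell 1.19-fold with dTAG-13 in cells with doxycycline (-0.26, SE 0.0278, adjusted p = 1.29e-10) and 1.08-fold with doxycycline in cells with dTAG-13 (-0.11, SE 0.028, adjusted p = 0.00469). After the length and GC correction the dTAG-13 falls were -0.22 and -0.13, and all 4 calls held. The interaction did not pass (0.08, SE 0.0389, adjusted p = 0.119).

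Ireb2 (chr9:54863789-54912530), which encodes IRP2, a protein that is degraded when iron is plentiful, varied from 109 to 120 CPM over all libraries. It was at 112 ± 2.25 CPM in control, 117 ± 3.29 in doxycycline, 116 ± 0.931 in dTAG-13 and 111 ± 1.85 in doxycycline plus dTAG-13 (SD, n = 3). Ireb2 did not pass with doxycycline (0.06, adjusted p = 0.131), and passed there without doxycycline replicate 2 (0.092, adjusted p = 0.0335). When libraries were scaled by size only it passed with doxycycline (0.094) and with dTAG-13 (0.133). Its fall with dTAG-13 in cells with doxycycline (-0.08, SE 0.0298, adjusted p = 0.0256) held in 3 of 8 alternatives and was lost without replicate 1 or 3 of doxycycline or replicate 1 of the group with both agents (adjusted p from 0.0618 to 0.0959). Its interaction (-0.12, SE 0.0418, adjusted p = 0.0382) held in 2 of 7 alternatives. It was lost in 8 of 12 fits that left out 1 library (adjusted p from 0.059 to 0.0997), and kept in those that left out control 3, doxycycline 2, dTAG-13 1 or the second library with both agents.

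Between genes, levels were compared as CPM per kilobase of transcript. In control cells Fth1 was highest at 1744 ± 83.6, followed by Mt2 at 635 ± 22.4, Ftl1 at 383 ± 21.2 and Mt1 at 347 ± 9.68 (SD, n = 3). Aco1, at 50.8 ± 0.813, and Tfrc, at 38.2 ± 0.563, came next, then Slc11a2 at 23.4 ± 0.565 and Ireb2 at 19.5 ± 0.39. The zinc transporters were lowest, Slc39a10 at 10.8 ± 0.292 and Slc30a1 at 3.98 ± 0.117. No neighbours in this order overlapped in control or doxycycline. Aco1 and Tfrc overlapped in both groups with dTAG-13, and Ftl1 and Mt2 overlapped in doxycycline plus dTAG-13.

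The genes whose log2 CPM followed a member most closely over the 12 libraries, by Pearson's r, were named for Mt1, Slc30a1 and Tfrc. For Mt1 they were Nkx6-1 (0.981), Foxc2 (0.969) and Nxf1 (0.966). For Slc30a1 they were Prelid1 (0.981), Ccnd1 (0.974) and Spry4 (0.974), and for Tfrc Gfod2 (0.984), Imp4 (0.971) and Tmem74 (0.965). The 12 libraries come from 4 cultures, so these values describe the order of 4 group means more than 12 independent points.

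The other genes of zinc and iron handling were taken from lists written with the members. Values of single list genes come from TMM scaling and were not examined with the length and GC correction. Of 25 genes of zinc sensing and zinc transport 15 were tested, and Mt3 and Mt4 were among those with too few reads. With doxycycline 3 rose and 4 fell, beside 33.5% of all genes that passed. With dTAG-13 5 rose and 7 fell, beside 62.1%, but 6 rose and 3 fell both with scaling by library size only and with the length and GC correction. With dTAG-13 in cells with doxycycline 3 rose and 5 fell, beside 64.1%, and 7 rose and 2 fell with the correction, so the list has no direction that holds with dTAG-13. Slc39a7, which releases zinc from the endoplasmic reticulum, fell with doxycycline from 218 ± 13.2 to 184 ± 3.51 CPM (log2 fold change -0.25, adjusted p = 7.56e-06) and with dTAG-13 to 180 ± 5.49 (-0.28, adjusted p = 3.47e-07). Slc39a7 did not pass with dTAG-13 in cells with doxycycline (-0.05, adjusted p = 0.204). Nor did it pass with doxycycline in cells with dTAG-13 (-0.02, adjusted p = 0.738), and its interaction was 0.23 (adjusted p = 0.00217). Slc39a13 rose with doxycycline from 83.7 ± 1.62 to 93.5 ± 3.7 CPM (0.16, adjusted p = 0.000596) and with dTAG-13 to 92.0 ± 1.11 (0.14, adjusted p = 0.00141). It fell with doxycycline in cells with dTAG-13 (-0.22, adjusted p = 1.32e-05) and with dTAG-13 in cells with doxycycline (-0.25, adjusted p = 2.07e-07). Its interaction was -0.38 (adjusted p = 4.25e-07). Slc39a11 rose with dTAG-13 from 77.9 ± 2.9 to 92.1 ± 3.99 CPM (0.24, adjusted p = 1.08e-06), and Slc39a9 fell with it in cells with doxycycline from 52.3 ± 1.58 to 42.7 ± 0.79 CPM (-0.29, adjusted p = 2.83e-07). Mtf1, the gene of the zinc sensor, fell with doxycycline (-0.18, adjusted p = 0.00495) and with dTAG-13 (-0.21, adjusted p = 0.000255). Mtf1 did not pass with dTAG-13 in cells with doxycycline (-0.11, adjusted p = 0.0562). Nor did it pass with doxycycline in cells with dTAG-13 (-0.07, adjusted p = 0.356). It was named after its values were seen.

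Of 12 genes of iron uptake, reduction, export and systemic control only 5 were tested, and the exporter Slc40a1 and the hormone Hamp were not. With doxycycline 3 rose and none fell, beside 14.8% of all genes that rose. Cp, a ferroxidase, rose from 2.39 ± 0.133 to 3.81 ± 0.855 CPM (0.68, adjusted p = 0.00134). Steap2, an iron reductase, was at 173 ± 3.14 CPM in control and 203 ± 2.48 in doxycycline, and dTAG-13 lowered it to 165 ± 1.21 in cells with doxycycline (-0.3, adjusted p = 3.32e-13).

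Of 11 genes of iron chaperones, ferritin turnover and iron sensing 9 were tested; 4 rose and 2 fell with doxycycline (4 and 1 with scaling by library size only), beside 33.5% of all genes that passed, and 3 rose and 5 fell with dTAG-13 in cells with doxycycline, beside 64.1%. Hmox1, the haem oxygenase that frees iron from haem, changed most of this list in every contrast except dTAG-13 against control (-0.01, adjusted p = 0.771). It was at 295 ± 14.6 CPM in control, 421 ± 8.2 in doxycycline, 293 ± 2.24 in dTAG-13 and 241 ± 7.46 in doxycycline plus dTAG-13 (SD, n = 3). Hmox1 rose with doxycycline (0.51, SE 0.0272, adjusted p = 1.58e-17) and fell with doxycycline in cells with dTAG-13 (-0.28, SE 0.0278, adjusted p = 4.25e-10). In cells with doxycycline, dTAG-13 lowered Hmox1 (-0.8, SE 0.0276, adjusted p = 5.83e-24). Its interaction was -0.79 (SE 0.0389, adjusted p = 4.95e-18). Fbxl5, the iron sensor that targets IRP2 for degradation, rose with dTAG-13 from 44.0 ± 0.0631 to 65.8 ± 0.767 CPM (0.58, adjusted p = 2.71e-16). It also rose with doxycycline (0.31, adjusted p = 8.34e-08), with dTAG-13 in cells with doxycycline (0.44) and with doxycycline in cells with dTAG-13 (0.16). Pcbp1, a chaperone that loads iron into ferritin, fell with dTAG-13 from 479 ± 5.32 to 364 ± 12.5 CPM (-0.39, adjusted p = 1.23e-16). Pcbp1 also fell with doxycycline (-0.16, adjusted p = 4.84e-06) and with dTAG-13 in cells with doxycycline (-0.23), but not with doxycycline in cells with dTAG-13 (0.01, adjusted p = 0.803).

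**Figure D4:**
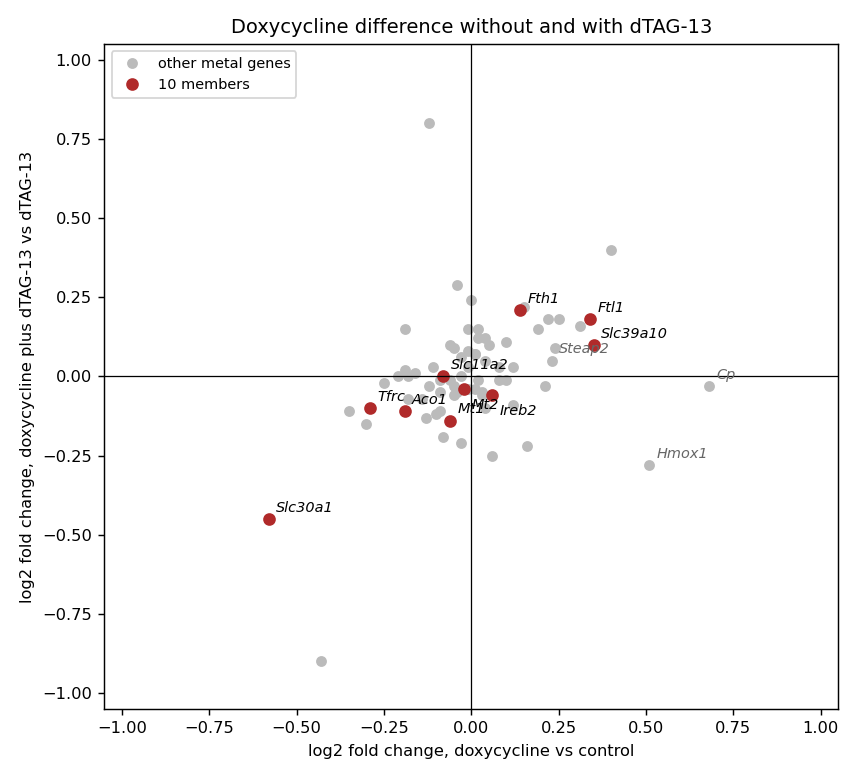
Log2 fold change for doxycycline without dTAG-13 (horizontal) and with dTAG-13 (vertical), groups that share no library, for the 10 genes (red) and the other metal genes tested (grey). Slc30a1 is at -0.58 and -0.45, while Hmox1 lies at 0.51 and -0.28.

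Of 19 genes of mitochondrial iron, iron-sulphur clusters and haem synthesis 18 were tested. With doxycycline 3 rose and 3 fell, beside 33.5% of all genes that passed. With dTAG-13 8 rose and 2 fell, a share near the 62.1% of all genes; the split was 10 and 0 with scaling by library size only and 5 and 3 with the length and GC correction. With dTAG-13 in cells with doxycycline 9 rose and 2 fell, near the 64.1% of all genes, with 12 and 1 by library size only and 7 and 2 with the correction. Slc25a37, the mitochondrial iron importer mitoferrin-1, rose with doxycycline from 102 ± 1.11 to 121 ± 1.63 CPM (0.25, adjusted p = 1.22e-09). It rose more with dTAG-13, to 130 ± 2.32 CPM (0.36, adjusted p = 1.17e-14). Slc25a37 also rose with dTAG-13 in cells with doxycycline (0.28, adjusted p = 6.99e-12) and with doxycycline in cells with dTAG-13 (0.18, adjusted p = 3.03e-06). The haem synthesis gene Ppox rose with dTAG-13 (0.58, adjusted p = 3.95e-07), and Uros rose with it in cells with doxycycline from 18.6 ± 1.06 to 29.5 ± 2.12 CPM (0.67, adjusted p = 2.74e-12).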

How the data were processed

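Raw read counts for 27179 Entrez gene IDs in 12 libraries were deposited by the authors as 1 table with no normalization. The aligner was Subread, per the file headers, and per the submitters' processing notes bcl2fastq 2.17, featureCounts and the mm10 build were used; not given in the sources used here are the annotation, the strand setting and the handling of multi-mapped reads. Per the labels' protocols the libraries were poly(A)-selected.

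Counts were tested in R 4.3.3 with edgeR 4.0.16: filterByExpr (12910 genes left), TMM scaling, 1 mean per group over all 12 libraries, robust quasi-likelihood F tests of 5 contrasts (two-sided), and Benjamini-Hochberg adjustment over all genes, with calls at an adjusted p under 0.05. Groups came from the labels. Transcript lengths were taken from GENCODE M21 and sequences from it and RefSeq. Alternatives were RLE size factors, library size only, DESeq2 1.42.0, no filter, a filter of 1 CPM in 3 libraries, a replicate block, a fit on the 2 groups of a contrast alone, a correction for length and GC content (splines with 5 degrees of freedom per library) and leaving out each library. The code was tested on simulated data. Besides the 10 members, named genes were, for each list and contrast, the called gene with the largest rise and the largest fall among those averaging 1 CPM or more, and for 3 members the 3 genes most like them; the text names part of these. The members and lists were chosen with earlier results of these data known.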

Additional observations from a re-analysis of the deposited data

Results flagged for a closer look

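The dTAG-13 difference was not the same with and without doxycycline for 3 of the 10 genes, by edgeR's test of the interaction, which 22.9% of all genes passed. For Slc39a10 the interaction was -0.25 (adjusted p = 0.000334), with differences of -0.35 with doxycycline and -0.1 without it. For Tfrc it was 0.18 (adjusted p = 0.000258), with differences of 0.2 and 0.01. For Ireb2 it was -0.12 (adjusted p = 0.0382), with differences of -0.08 and 0.04. The first 2 passed in all 7 alternatives and in all 12 fits that left out 1 library; Ireb2 passed in 2 and 4 of them.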

How the results depend on the processing

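Each of the 40 pairwise values of the 10 genes was recomputed under 8 alternatives and each of the 10 interactions under 7, and again without each library. No count of genes called, over all genes, over the 10 genes or over the other metal genes pooled, moved by more than 1.5 times; for doxycycline against control the count over all genes ranged from 3856 to 4392, and from 3485 to 4239 without 1 library. The counts of single lists are small, and over RLE, library size only and the correction 10 values moved by more: with the length and GC correction, copper and magnesium genes went from 14 to 9 with dTAG-13 in cells with doxycycline and from 8 to 3 in the interaction, and iron uptake genes from 4 to 2 with dTAG-13. Calls were lost or made, or signs turned, most often with the length and GC correction (17 of 50 values) and with scaling by library size only (14 of 50). With library size only, signs turned for Mt2 with doxycycline (0.020), and for Slc11a2 with dTAG-13 in cells with doxycycline (0.003) and with doxycycline in cells with dTAG-13 (-0.031). With the length and GC correction they turned for Mt2 (0.030) and Ireb2 (-0.012) with doxycycline, for Tfrc (-0.060), Slc11a2 (0.045) and Fth1 (-0.158) with dTAG-13, for Slc11a2 (0.161), Fth1 (-0.221) and Ftl1 (-0.202) with dTAG-13 in cells with doxycycline, and for Fth1 in the interaction (-0.063). The cause was not tested. Leaving out 1 library, values that crossed 0 were those of Mt2 with doxycycline (-0.030 to 0.009), Tfrc with dTAG-13 (-0.004 to 0.017), Slc11a2 with dTAG-13 in cells with doxycycline (-0.054 to 0.003) and with doxycycline in cells with dTAG-13 (-0.013 to 0.026), and Mt2 in the interaction (-0.078 to 0.008), none of which had passed.

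The replicate numbers did not pair the libraries: deviations of same-numbered libraries correlated at -0.021 to 0.08 over 18 pairs, beside -0.061 to 0.066 over 36 pairs with different numbers. With the replicate block, 6 of the 10 genes passed with doxycycline (4172 of all genes) and 6 with dTAG-13 (7938). In cells with doxycycline 8 passed with dTAG-13 (8205 of all genes), in cells with dTAG-13 5 passed with doxycycline (2490), and 2 passed in the interaction (2810). The calls lost were Slc11a2 with doxycycline, Ftl1 with dTAG-13 and Ireb2 in the interaction. Slc30a1 was the member with the fewest reads (237 to 668 a library), and the part of depth in its SE was not tested.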

Other observations

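Genes of copper and magnesium handling were also measured, 19 of 21 with enough reads to test. With dTAG-13 7 rose and 6 fell, beside 62.1% of all genes that passed, and 11 rose and 5 fell with scaling by library size only. With dTAG-13 in cells with doxycycline 6 rose and 8 fell, beside 64.1%, and only 4 rose and 5 fell with the length and GC correction. With doxycycline 2 rose and 3 fell, beside 33.5%, or 1 and 3 with the correction. Cox17, a copper chaperone of mitochondria, rose with dTAG-13 in cells with doxycycline from 59.8 ± 4.48 to 90.3 ± 2.21 CPM (log2 fold change 0.6, adjusted p = 5.44e-05). Atox1, a copper chaperone of the cytosol, was higher with both agents than with dTAG-13 alone (69.6 ± 2.94 against 59.0 ± 1.88 CPM, 0.24, adjusted p = 2.19e-05), and Atp7a, the copper pump it feeds, was lower (26.1 ± 1.29 against 30.9 ± 0.834 CPM, -0.25, adjusted p = 0.000552). Slc41a1, a magnesium transporter, fell with dTAG-13 in cells with doxycycline from 100 ± 1.55 to 68.4 ± 2.14 CPM (-0.56, adjusted p = 7.45e-18). Cnnm4, which also takes part in magnesium transport, fell with doxycycline from 36.7 ± 0.768 to 28.8 ± 1.41 CPM (-0.35, adjusted p = 3.85e-07). It fell more with dTAG-13, to 26.1 ± 0.689 CPM (-0.49, adjusted p = 3.76e-11), and again with dTAG-13 in cells with doxycycline (-0.25, adjusted p = 9.51e-05). Cnnm4 did not pass with doxycycline in cells with dTAG-13 (-0.11, adjusted p = 0.156). The values are means ± SD over 3 libraries, and the adjusted p-values are edgeR's. Single genes of this list were not examined with the length and GC correction.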
